A study of Glycine max with 2 samples.

Results

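The 100 soybean genes described here are those whose RNA counts were cut most often when free RNA was subtracted from a single-nucleus library. They were chosen by the corrected counts themselves. The deposited matrix lists gene and nucleus pairs (stored entries), and some listed pairs have the value 0, which was taken to mean that the pair held at least 1 unique molecular identifier (UMI, which stands for 1 captured RNA molecule) before the correction and none after it. Among 56044 listed genes, 3441 had at least 2000 stored entries. The 70 of these with the highest summed UMIs were left out, and of the remaining 3371 genes the 100 with the largest share of entries at 0 were taken. The share of entries at 0 is therefore what defined the genes, and it is given as a description only.

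The nuclei came from pooled cotyledon-stage seeds of Glycine max cv Williams 82 plants grown in a greenhouse. A Multiome assay, in which RNA and accessible chromatin (ATAC) of a nucleus carry the same barcode, gave 1 RNA library and 1 ATAC library from 10000 loaded nuclei. There is no second library of either kind and no treated or mutant group. In RNA, 8636 nuclei gave 39881831 UMIs after the correction, a median of 2945.5 each with a range of 199 to 111060, and every one of these nuclei also had ATAC fragments (median 7840, range 129 to 294125). Nuclei of 1 library are not replicates, so no p-value was computed, and the 95% intervals given (exact Poisson for levels, exact Clopper-Pearson for shares) cover counting error only.

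A soybean seed at this stage holds an embryo, an endosperm that is being consumed and a maternal seed coat with an epidermis, an outer integument with vascular tissue and, innermost, the inner integument or endothelium. When a tissue is broken up, RNA of its most active genes leaks out of broken cells and enters droplets that hold nuclei of another kind, so that a gene of 1 seed region seems to be present nearly everywhere. SoupX, the tool the authors used, estimates the makeup of this free RNA and takes away the molecules that a nucleus may hold from it. A gene whose RNA is abundant in a few nuclei and absent from most can lose many entries in this step, while a gene active in all nuclei may lose fewer. Whether this holds for the genes described here was not tested.

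Nuclei were grouped into 23 clusters, which were matched to the study's cluster numbers (sn0 to sn20) and take the seed region that the study assigned to each. Short lists of 3 to 15 markers, taken from the study's tables and figures, were checked in each cluster. The lists come from these same nuclei, are not independent and are not the study's full marker sets. All 7 embryo markers were detected and enriched in sn2, sn15 and sn18, and 6, 9 and 8 of 11 endosperm markers in sn10, sn11 and sn12. The 15 seed coat epidermis markers were enriched in sn7, sn13 and sn20, and 14 of them in sn3. Cluster sn0 had 15 of 15 outer integument markers and sn9 had 3 of 3 endothelium markers. Of the other clusters placed in the outer integument, sn19 had 12 of its markers, sn5a 10, sn1 and sn6b 1 each, and sn5b and sn6a 0. Clusters sn4 and sn17, which the study placed in several seed coat subregions, had 1 epidermis marker and 4 outer integument markers, respectively. Cluster sn8, with 475 nuclei, had no region in the study and no enriched marker of any list.

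The 100 genes had 332748 stored entries, of which 193058 (58.0%) were at 0, compared with 18.2% of all 30571536 entries. By gene the share ranged from 44.6% to 85.7% with a median of 52.8%, and the median of the other 3271 genes was 14.2%. Just inside the limit were Glyma.09G005600 (45.1%), Glyma.08G181300 (44.9%) and Glyma.10G258500 (44.6%). Just outside were Glyma.02G224100 (44.6%), Glyma.12G036000 (44.4%) and Glyma.15G091400 (44.3%), so that no gap separates the genes from the next in rank. The 100 genes were not rare after the correction. They kept 575518 UMIs, with a median of 3982 per gene against 3710 for the other genes, but the median share of nuclei with a UMI left was 15.0% against 25.5%. With each nucleus thinned to 500 UMIs and 27 shallower nuclei left out, these shares were 4.27% and 4.47%. The nuclei that did hold a UMI held more of them, with a median over genes of 3.69 UMIs per such nucleus against 1.67.

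The remaining UMIs lay in few clusters. By gene the cluster with the most UMIs (the top cluster) held a median of 41.6% of them, with a range of 17.8% to 85.0%, and the 3 top clusters together held 70.3%. For the other genes these medians were 13.6% and 33.0%. Of the 100 genes, 39 had at least 50% of their UMIs in 1 cluster, as had 44 (1.31%) of all 3371 genes. The count was 22 with nuclei thinned to 500 UMIs and 26 with clusters from ATAC alone. It was 72 when the 100 genes were chosen from those with at least 1000 entries and 10 from those with at least 4000. The choice of the genes and the place of their UMIs rest on the same corrected counts, and these counts are a description of what was left, not a separate observation.

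**Figure D1:**
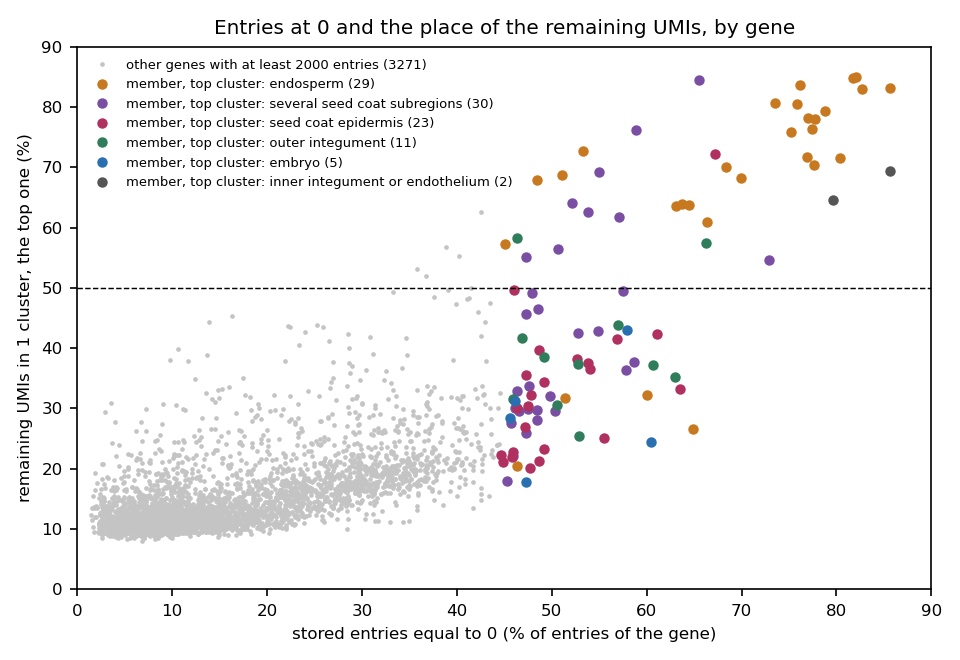
Each point is a gene with at least 2000 stored entries. The x axis gives its entries at 0 as a percentage of its stored entries, and the y axis gives the percentage of its remaining UMIs in its top cluster. The 3271 other genes are grey, with a median of 13.6% on the y axis, and the 100 chosen genes are colored by the region of the top cluster. The dashed line is at 50%, and 39 of the 100 lie above it.

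The entries at 0 of the 100 genes lay mostly outside the top cluster. In the top cluster a median of 12.4% of a gene's entries were at 0, and outside it 59.2%, compared with 7.73% and 14.8% for the other genes. The cluster with the most entries at 0 was not the top cluster for 100 of the 100 genes, which by itself distinguishes them little, since this held for 95.4% of all 3371 genes. The removal was often complete. In 264 of 2300 pairs of a gene and a cluster (11.5%) every entry was at 0, compared with 38 of 75047 pairs (0.0506%) of the other genes. At least 1 such cluster was found for 63 of the 100 genes and for 2.64% of the 3371. Cluster sn0, the largest outer integument cluster with 761 nuclei, held the most entries at 0 for 55 genes, sn7 for 22 and sn1 for 15.

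**Figure D2:**
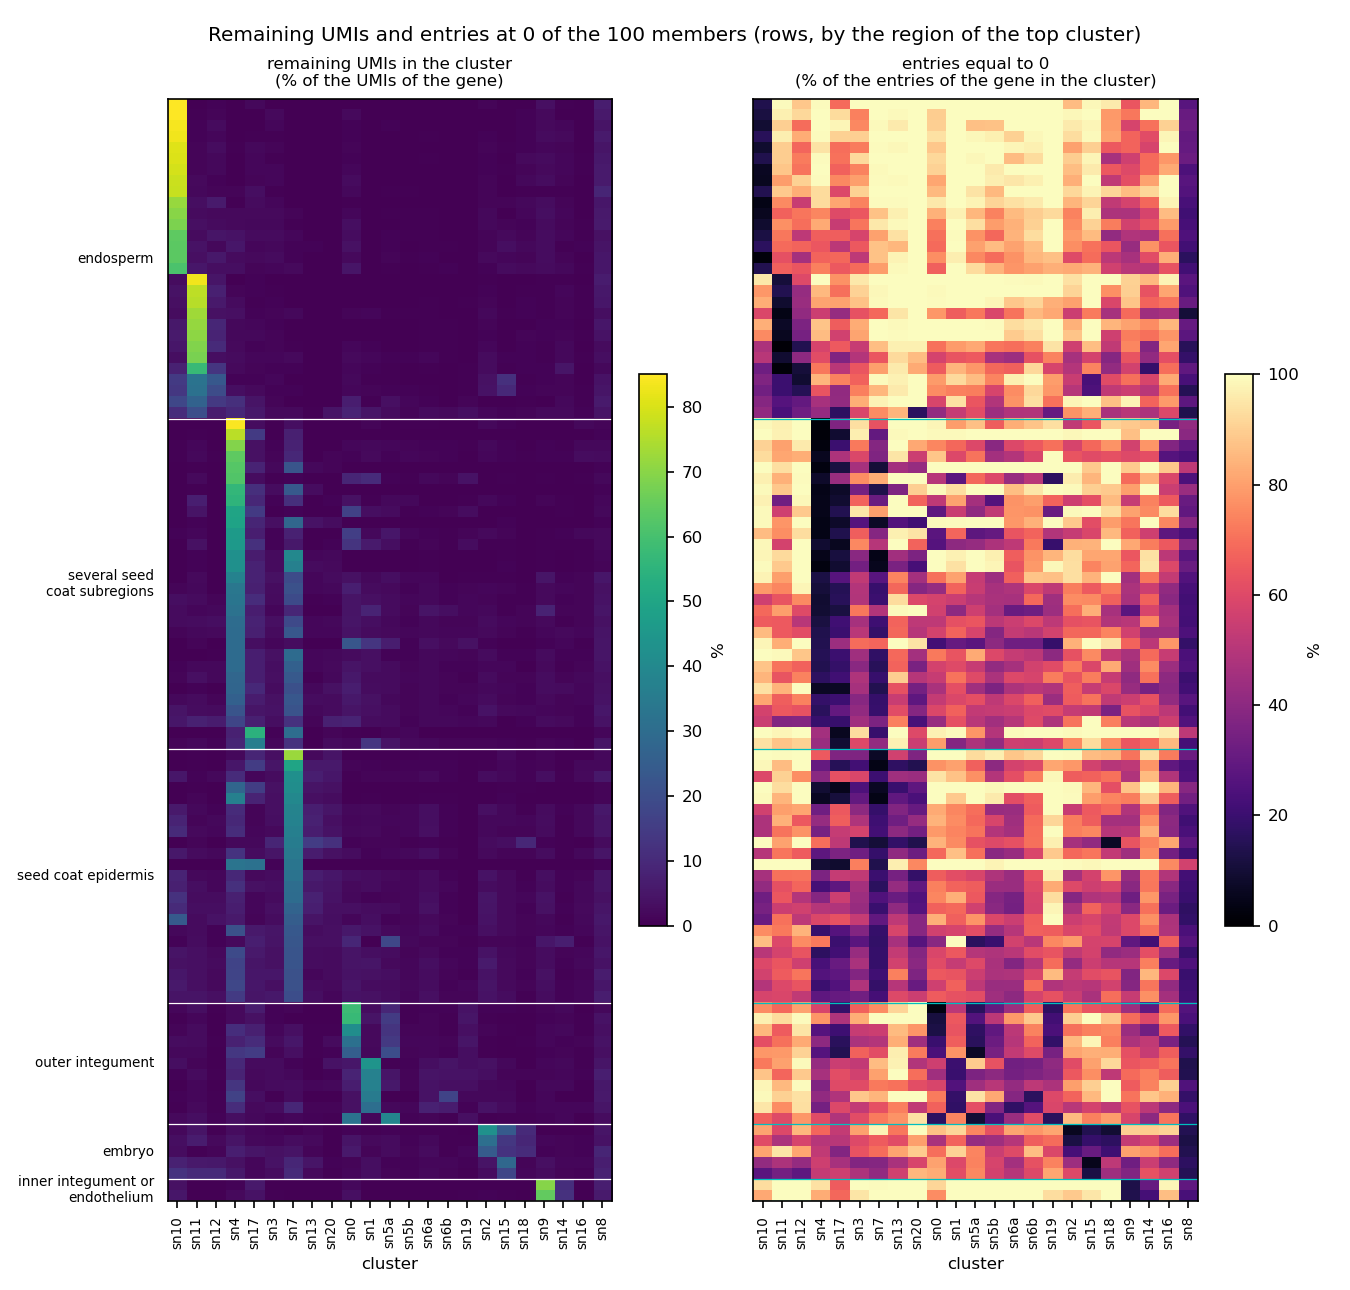
Rows are the 100 genes, grouped by the region of the top cluster, and columns are the 23 clusters. The left panel gives the percentage of the remaining UMIs of a gene in each cluster, with a median of 41.6% in the top one, and the right panel gives the percentage of its entries in that cluster that are at 0. Bright squares on the left sit over dark squares on the right, and the last column, sn8, is dark for genes of every region.

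By the region of the top cluster, 30 genes belonged to several seed coat subregions (28 in sn4 and 2 in sn17), 29 to the endosperm (16 in sn10 and 13 in sn11), 23 to the seed coat epidermis (all in sn7), 11 to the outer integument, 5 to the embryo and 2 to the inner integument or endothelium. Of the 3371 genes, 12.6% had their top cluster in several seed coat subregions, 28.7% in the endosperm, 33.5% in the epidermis, 21.7% in the outer integument, 3.00% in the embryo and 0.386% in the inner integument or endothelium. Counts of UMIs favor large and deep clusters. Below, genes are grouped by the region of their top cluster by UMIs, also where another cluster led by CPM. By counts per 1000000 UMIs of the cluster (CPM), 78 of the chosen genes kept the same top cluster, as did 1021 of the 3371 genes. By CPM the endosperm led for 30 of the chosen genes and several seed coat subregions for 33. The epidermis led for 10 of them and sn8, which led for 0 genes by UMIs, for 8. Regions by CPM were not counted for the 3371 genes, so these region counts do not set the chosen genes apart.

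The inner integument or endothelium held the gene with the largest share of entries at 0. Glyma.19G002300, which has no annotation in the tables used here, was stored in 5901 of the 8636 nuclei, and 85.7% of these entries were at 0. Its level was 5392 CPM (5259 to 5528) in sn9 and 70.1 CPM (67.5 to 72.8) over the other nuclei. In sn9 a UMI remained in 77.3% of nuclei (72.8% to 81.4%, median depth 1895 UMIs), and 52.9% after thinning. In sn1, with a median depth of 3210 UMIs, 415 nuclei had an entry for Glyma.19G002300 and all were at 0, so that 0 of 708 nuclei held a UMI. Such a 0 was made by the correction, and no counting limit is given for it here or for other clusters in which entries were stored. All of its entries were at 0 in 13 clusters. Glyma.05G002200, also without annotation, followed the same order of clusters, with 3501 CPM in sn9, 840.5 CPM in sn14 and 545.8 CPM in sn8, and Glyma.19G002300 had 1133 CPM in sn14 and 906.3 CPM in sn8. A single sn9 nucleus with 26962 UMIs held 1575 UMIs (17.7%) of Glyma.19G002300 and 1012 UMIs (16.3%) of Glyma.05G002200. Without that nucleus sn9 held 62.9% and 57.7% of their UMIs in place of 69.5% and 64.6%.

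The endosperm genes had the highest median share of UMIs in the top cluster of the 6 regions, 71.6%, 25 of the 29 had at least 50% there, and a median of 82.3% of their entries outside that cluster were at 0. Of the 29, 1 is annotated in the tables used here, Glyma.09G005600, as APA1, an aspartic proteinase of Arabidopsis. Glyma.06G307400 kept 83.2% of its UMIs in sn11, at 2393 CPM (2335 to 2452), and was at 71.7 CPM in sn10 and 207.4 CPM in sn12. In sn11 86.4% of nuclei held a UMI of it, 51.7% after thinning, and in sn0 1 entry of 433 was not at 0, a share of 0.131% of nuclei (median depths 5860 and 3173 UMIs). Glyma.17G083600 (3605 CPM in sn11 and 693.7 CPM in sn12) and Glyma.05G016500 (3303 CPM in sn11 and 601.8 CPM in sn12) spread further into sn12, the third endosperm-like cluster. Both were also among the 10 of the 100 genes with the most UMIs, at 13697 and 12754. Glyma.09G005600 was at 683.7 CPM in sn11 and 236.5 CPM in sn12, and 93.8% of sn11 nuclei held a UMI of it.

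The 16 sn10 genes kept between 60.9% and 85.0% of their UMIs in sn10. The 6 named first were picked for their share at 0 or in sn10. Glyma.08G228600 had 85.0% of its UMIs in sn10, Glyma.07G134200 84.8%, Glyma.11G173300 83.8%, Glyma.17G256000 83.1%, Glyma.18G277700 79.4% and Glyma.08G228400 78.0%. Glyma.18G277700 was at 1568 CPM in sn10 and 32.5 CPM over the other nuclei, and Glyma.07G134200 at 579.9 CPM and 8.26 CPM. In sn11, which is also endosperm-like, Glyma.08G228600 was stored in 156 nuclei with 1 UMI left in all, and in the outer integument cluster sn0 222 of 222 entries were at 0. In sn10 itself 75.6% of nuclei held a UMI of Glyma.08G228600 (70.7% to 80.0%, 24.7% after thinning, median depth 6944 UMIs against 3173 in sn0). For all 16 genes with sn10 on top, the next cluster by CPM was sn8, and this was so for 9 of the 13 sn11 genes.

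Among the sn10 genes were 4 pairs with adjacent or nearly adjacent identifiers, whose positions in the genome were not analysed here. Glyma.02G281400 and Glyma.02G281500 held a UMI in 1108 and 1772 nuclei, and 699 nuclei held both, which is 63.1% of the first and 39.4% of the second. Glyma.08G228400 and Glyma.08G228600 shared 245 nuclei (54.9% and 48.6%), Glyma.09G055000 and Glyma.09G055100 shared 360 (43.2% and 39.0%), and Glyma.14G032800 and Glyma.14G033000 shared 246 (46.5% and 31.3%). All of these genes have sn10 on top. Shared nuclei were not counted for other pairs of sn10 genes, so the values do not set the 4 pairs apart. No source used here says how reads of near-identical copies were divided, so the split of UMIs within such a pair is uncertain. The 100 genes as a whole were spread over all 20 chromosomes, with 2 to 9 on each and 1 on a scaffold.

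Of the 30 genes of several seed coat subregions 20 are annotated, and the 4 with the largest share of UMIs in sn4 belong to lipid-transfer or lipase and lipoxygenase families. Glyma.13G005500, of the lipid-transfer and 2S albumin superfamily, kept 84.6% of its 12703 UMIs in sn4 (2778 CPM, 2725 to 2831) and was at 54.5 CPM over the other nuclei. It held a UMI in 92.9% of sn4 nuclei (60.9% after thinning, median depth 3266 UMIs) and in 0.657% of sn0 nuclei (median depth 3173 UMIs). Glyma.08G344300 of the same superfamily had 69.2% of its UMIs in sn4, and Glyma.11G120400, annotated as DIR1, a lipid-transfer protein of long-distance defense signaling in Arabidopsis, had 64.0%. Glyma.05G179300, a PLAT/LH2 lipase or lipoxygenase family gene, had 76.3% in sn4 at 1288 CPM and a further 14.6% in sn17 at 810.3 CPM. It had no UMI in 12 clusters.

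Other sn4 genes reached further across the seed coat. Glyma.05G180600, annotated as MIPS3, which makes the inositol phosphate that leads to inositol and phytate, had 61.8% of its UMIs in sn4 (1982 CPM), and stood at 600.9 CPM in sn19 and 443.3 CPM in sn1, clusters of the outer integument. Glyma.04G091800, an aspartyl protease family gene, had 46.4% in sn4 (1961 CPM), 977.7 CPM in sn17 and 756.6 CPM in sn0, and no cluster had all of its entries at 0. Glyma.03G243200, without annotation, had 42.8% in sn4 (1783 CPM) and 39.8% in sn7 (1514 CPM). By UMIs sn7 was next for 22 of the 28 sn4 genes and sn4 for 16 of the 23 sn7 genes. By CPM the top cluster by UMIs was set aside and the highest other cluster was taken, also where it stood above the one set aside. This other cluster was sn7 for 2 of the 28 sn4 genes, sn17 for 14 and sn8 for 6. For the 23 sn7 genes it was sn4 for 1 and sn8 for 15. The 2 genes with sn17 on top included Glyma.11G154900, without annotation, at 4602 CPM in sn17 with 54.6% of its UMIs there and 30.5% in sn7.

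The flavonoid pathway gives the seed coat its tannins and pigments. Both listed genes annotated as leucoanthocyanidin dioxygenase (LDOX), which makes anthocyanidins, were among the 100. Glyma.11G027700 was at 1793 CPM (1751 to 1836) in sn4, 1419 CPM in sn7 and 1114 CPM in sn17, and Glyma.01G214200 was at 944.0 CPM, 925.7 CPM and 712.7 CPM in these clusters. A UMI of Glyma.11G027700 remained in 87.3% of sn4 nuclei (48.4% after thinning) and in 0 of 761 sn0 nuclei, where all 267 entries were at 0. Glyma.20G241700, a chalcone isomerase family gene (TT5), was at 1312 CPM in sn4, 591.2 CPM in sn17 and 431.9 CPM in sn7, and Glyma.05G088100, flavonol synthase FLS1, at 1244 CPM, 722.8 CPM and 649.0 CPM. The 3 highest levels of these 4 genes were in sn4, sn7 and sn17, with at most 0.591 CPM in sn0 (Glyma.05G088100). Glyma.20G241700 and Glyma.05G088100 were picked after their values were seen, and enzymes outside the 100 genes can lie elsewhere, such as the dihydroflavonol reductase gene Glyma.02G158700, with 28.3% of its UMIs in sn0 as its top cluster, and the chalcone synthase gene Glyma.08G109300, with 25.4% in sn5a.

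A list of 21 flavonoid genes was picked by symbol from the study's tables. It lacked Glyma.20G241700 and Glyma.05G088100, which are among the 100, and on it the LDOX pair were the only ones of the 100. A further 6 had fewer than 2000 entries and 5 were among the 70 left out for their UMIs, some of which had as large a share of entries at 0, such as Glyma.08G062000 (BAN, the anthocyanidin reductase, 57.0%) and Glyma.02G048400 (F3H, 52.2%). Shares over the list ran from 6.04% to 57.0%, and enzymes lay at both ends. Glyma.08G109300, a chalcone synthase gene, had 6.04% and Glyma.10G209800, a phenylalanine ammonia-lyase gene, 9.59%. Among the regulators, Glyma.02G147800 and Glyma.10G026000, copies of the bHLH regulator TT8, had 15.9% and 17.2% of entries at 0, and the TTG2 copies Glyma.03G176600 and Glyma.19G177400 had 14.7% and 20.4%. The MYB5 copies Glyma.05G061900 and Glyma.17G143600 had 21.1% and 23.4%. Glyma.02G147800 had 26.1% of its UMIs in its top cluster sn7, and the LDOX gene Glyma.11G027700 42.6% in sn4.

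The seed coat epidermis cluster sn7 was on top by UMIs for 23 genes and by CPM for 9. Of the 23, 1 had at least 50% of its UMIs in sn7, and the median share there was 32.3%. That gene, Glyma.02G032300, without annotation, had 72.2% in sn7 at 1661 CPM (1622 to 1700), 722.8 CPM in sn17 and 412.0 CPM in sn20, which is also epidermis-like. It held a UMI in 77.9% of sn7 nuclei (44.1% after thinning, median depth 3332.5 UMIs) and in 0 of 761 sn0 nuclei. Glyma.06G322100, annotated as LLG1, a GPI-anchored partner of receptor kinases in Arabidopsis, kept the most UMIs of the 100 genes, 16503. It stood at 2141 CPM in sn17, 1619 CPM in sn7 and 1179 CPM in sn4, and had no UMI in 8 clusters, among them sn1 and the endosperm cluster sn10. Glyma.18G214600, annotated as lipid transfer protein LTP3, was at 2576 CPM in sn17, 811.9 CPM in sn4 and 748.7 CPM in sn7, with no UMI in 12 clusters. For these 2 genes, and for Glyma.13G244800 (1063 CPM in sn17 and 974.8 CPM in sn7), sn7 led by UMIs but sn17 by CPM.

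Other genes with sn7 on top by UMIs were spread over more clusters. Glyma.17G063200 was at 585.7 CPM in sn7, 460.4 CPM in sn8 and 291.3 CPM in sn20. The 2 ribosomal protein genes, Glyma.08G181300 and Glyma.10G258500, had only 21.1% and 22.2% of their UMIs in sn7. Glyma.10G258500 was at 388.0 CPM (342.9 to 437.3) in sn8, 272.2 CPM in sn7, 256.2 CPM in sn4 and 253.1 CPM in sn17, with overlapping intervals for the last 3, and no cluster had all its entries at 0. Of the 100 genes these 2 lay next to the limit, and for both the highest level was in sn8. Both kept UMIs in every cluster, for instance in 20.5% of sn0 nuclei for Glyma.10G258500.

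Of the 11 outer integument genes 10 are annotated. Glyma.09G249500, serine carboxypeptidase-like 20, had 58.3% of its UMIs in sn0 (2143 CPM, 2094 to 2193), 698.2 CPM in sn17, 688.6 CPM in sn5a and 620.3 CPM in sn19. Glyma.03G125400, serine carboxypeptidase-like 45 (SCPL45), had 57.4% in sn0 (1816 CPM) and 964.0 CPM in sn5a. It held a UMI in 81.2% of sn0 nuclei (40.9% after thinning) and in 0.185% of sn7 nuclei, whose median depths were 3173 and 3332.5 UMIs, and 334 of its 335 entries in sn7 were at 0. Glyma.02G213000, an aspartyl protease family gene, was at 1323 CPM in sn0 and 824.5 CPM in sn5a, and was at 0 throughout no cluster. Glyma.03G125400 and Glyma.02G213000 are both on the outer integument marker list, so sn0 as their place is what that list had already used.

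A glycosyl hydrolase family 10 gene, Glyma.10G257000, was broader, at 1888 CPM in sn17, 1784 CPM in sn5a and 1098 CPM in sn0, with 25.5% of UMIs in sn0. The study placed cluster sn1 in the outer integument, but it had only 1 of the 15 outer integument markers and 3 of 7 seed vasculature markers. It was the top cluster of 5 genes. Among them Glyma.08G200000, an acid phosphatase family gene, was at 1381 CPM in sn1 and 870.1 CPM in sn8, and Glyma.06G084200, of the phosphorylase superfamily, at 550.1 CPM in sn1 and 263.5 CPM in sn8. One sn1 nucleus of 79679 UMIs held 743 UMIs (6.82%) of Glyma.08G200000 and 258 of the 3686 UMIs of Glyma.06G084200. Glyma.18G061100, annotated as asparagine synthase ASN1, which loads nitrogen onto asparagine for transport, was the only one with sn5a on top, at 988.3 CPM there and 403.0 CPM in sn0.

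The 5 embryo genes had the lowest median share of UMIs in the top cluster of the 6 regions, 28.3%, and none reached 50%. Glyma.04G124100, a dirigent-like protein gene on the embryo marker list, was at 659 CPM (624.6 to 695.5) in sn2, 559.3 CPM in sn15 and 508.7 CPM in sn18, so that all 3 embryo-like clusters led. It held a UMI in 58.9% of sn2 nuclei (22.0% after thinning, median depth 2576 UMIs) and 1.55% of sn1 nuclei (median depth 3210 UMIs). Glyma.11G176200 followed with 803.5 CPM in sn2, 767.8 CPM in sn18 and 537.8 CPM in sn15. Glyma.06G061200 was instead at 724.4 CPM in sn15 and next at 354.7 CPM in sn8, and was at 106 CPM in the endothelium-like sn9. Glyma.06G160300, annotated as the plant defensin PDF2.5, was at 311.6 CPM in sn18, 234.5 CPM in sn8 and 223.9 CPM in sn2, and its intervals in sn8 (199.8 to 273.6) and sn2 (203.8 to 245.3) overlap.

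**Figure D3:**
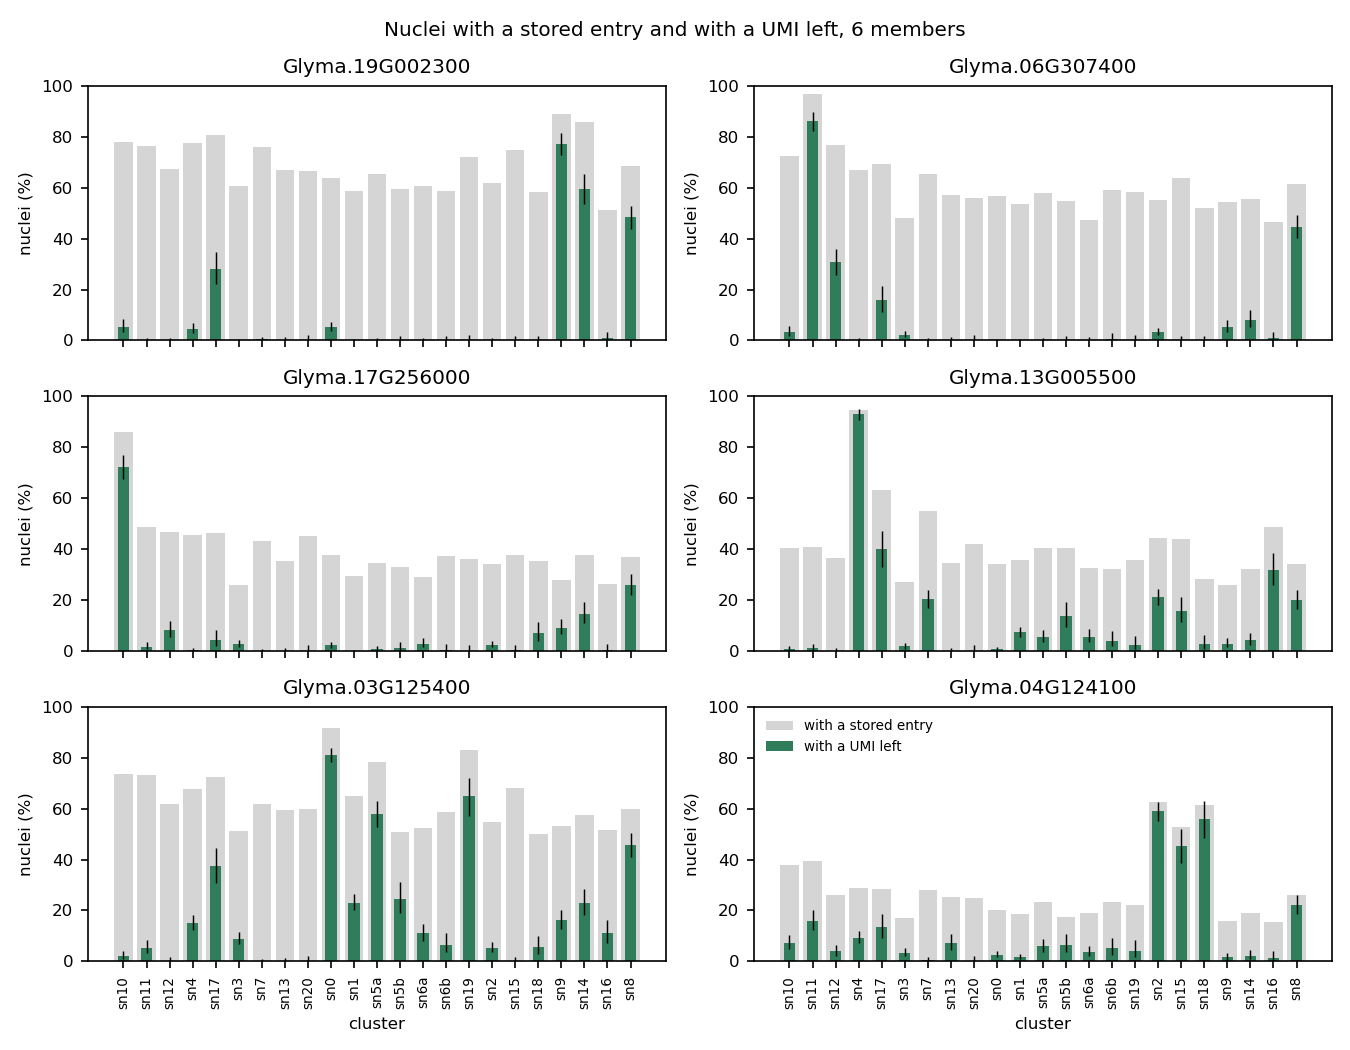
For 6 genes the grey bars give the percentage of nuclei in each cluster with a stored entry and the green bars the percentage with a UMI left, with exact 95% Clopper-Pearson intervals. Glyma.19G002300 has an entry in most nuclei of every cluster and a UMI in 77.3% of sn9 nuclei but in 0 of 708 sn1 nuclei. All 6 genes keep UMIs in sn8.

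Cluster sn8 kept UMIs of genes from every region. It is shallow in both assays, with a median of 1152 UMIs and 1428 ATAC fragments per nucleus, and 17.8% of its entries over all genes were at 0, close to the 18.2% of the library. For the 100 genes, however, 24.8% of its entries were at 0, the lowest of the 23 clusters, where sn17 and sn4 followed with 36.2% and 36.5% and sn1 had the highest share at 72.3%. By gene the share in sn8 ran from 10.2% to 57.0%, and no gene had all its sn8 entries at 0. The CPM in sn8 was a median of 0.375 times that in the top cluster, with a range of 0.0431 to 2.03. For the other genes the median was 0.542 times. Leaving the top cluster aside, sn8 had the highest CPM for 53 of the 100 genes and for 22.8% of the 3371, and the smallest share of entries at 0 for 51 of the 100 genes and for 10.3% of the 3371.

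Depth moved with the entries at 0. In the fifth of nuclei with the fewest UMIs (199 to 1716), 33.9% of entries of the 100 genes were at 0, and in the fifth with the most (5958 to 111060), 67.1%. For all listed genes outside the 100, with no limit on stored entries, these shares were 6.93% and 24.7%. The nuclei with an entry at 0 had a higher median depth than those with a UMI left for 95 of the 100 genes, with medians over genes of 5085 and 3391 UMIs. The same count was not made for the other genes, so it does not set the 100 genes apart. The part of depth in the low share of sn8 was not tested. Clusters sn4, sn17, sn7 and sn8, where the members took 3.29%, 3.54%, 2.03% and 2.96% of all UMIs, also had the fewest ATAC fragments per nucleus (medians of 1624, 1729, 2428 and 1428), and sn10 and sn11, at 1.92% and 1.98%, had many (19428.5 and 19893). The highest nucleus held a median of 1.89% of a gene's UMIs, although 1 nucleus of 102335 UMIs was the highest for 14 genes.

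Accessible chromatin was not used to choose the genes. It comes from the same nuclei, and the sources used here do not say whether ATAC entered the clusters that the correction was given. Each nucleus was compared with its 20 nearest neighbors by ATAC, and the share of neighbors with a UMI of the gene left was set against the share of all nuclei. Around nuclei with a UMI left, the neighbors held a UMI in a median of 30.2% over the 100 genes, against 15.0% of all nuclei. For the other genes these medians were 33.8% and 25.5%. The share itself was thus not higher for the 100 genes, and the ratios below divide by a lower share of all nuclei. The ratio had a median of 1.75 (range 1.17 to 6.07) and was above 1 for 100 of the 100 genes, as it was for 3271 of 3271 other genes, whose median was 1.28. It was at least 2 for 43 of the 100 genes and for 2.22% of the 3371 genes. The endosperm genes had a median ratio of 2.93 and the epidermis genes of 1.35, with 1.71 for several seed coat subregions, 1.46 for the outer integument, 1.46 for the embryo and 3.64 for the endothelium pair.

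Around nuclei with an entry at 0 the neighbors held a UMI at a median of 0.886 times the share of all nuclei (range 0.615 to 1.16), and the nuclei with no entry at 0.833 times. For the other genes the corresponding medians were 1.31 and 0.813. The ratio was below 1 for 83 of the 100 genes, compared with 10.4% of the 3371. It was below that of nuclei with no entry for 21 of the 100 genes and for 28 of the 3371. These groups of nuclei are divided by the entries that chose the genes and together make up all nuclei, so a ratio above 1 around nuclei with a UMI left goes with lower ratios around the rest, and the counts are a description only. Glyma.19G002300 had the lowest ratio around nuclei with an entry at 0 (0.615), though not the lowest share. Of the neighbors of these nuclei 6.03% held a UMI. The share was 6.32% for nuclei with no entry, 39.9% for nuclei with a UMI left and 9.80% for all nuclei. Glyma.07G134200, of sn10, had the highest ratio for nuclei with a UMI left, at 32.8% against 5.41%. For the LDOX gene Glyma.11G027700 the shares were 50.7% for nuclei with a UMI left and 14.9% for those with an entry at 0, against 21.9% of all nuclei. The ribosomal gene Glyma.08G181300 had 31.2% and 26.0% against 25.9%, with ratios of 1.21 and 1.01. When only the 6399 nuclei with at least 3000 ATAC fragments were used, the median ratios were 1.91 and 0.929, and 68 genes rather than 83 had a ratio below 1 for entries at 0.

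**Figure D4:**
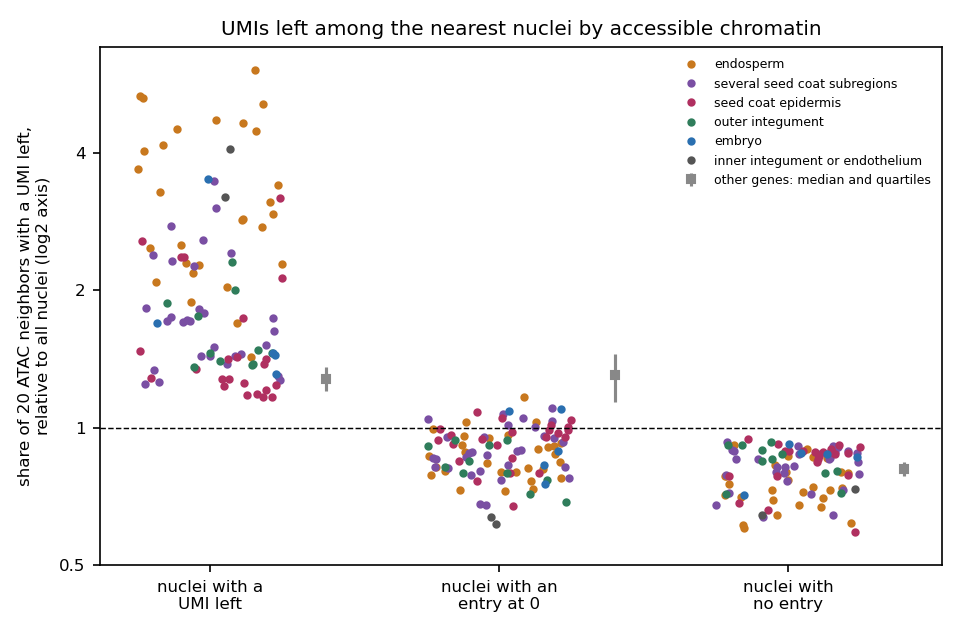
Each point is 1 of the 100 genes, colored by the region of its top cluster. The y axis (log2 scale) gives the share of 20 ATAC neighbors with a UMI left relative to the share of all nuclei, for nuclei with a UMI left, with an entry at 0 and with no entry. Grey squares and bars are the median and quartiles of the 3271 other genes. The medians of the 100 genes are 1.75, 0.886 and 0.833, and those of the other genes 1.28, 1.31 and 0.813.

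The study's marker tables also place some of these genes. Sheets of 8 clusters, sn0 to sn6a, were used, and those of the other clusters, among them the endosperm clusters and sn9, were not analysed here. Of 151 genes on its sn4 sheet 24 were among the 100, and sn4 was the top cluster of 21 of them. The sn0 sheet held 6 of 150, that of sn1 4 of 128, of sn5a 3 of 115 and of sn2 1 of 39. The sheets of sn3, sn5b and sn6a held none. The 100 genes were chosen from 3371, which included 95 genes of the sn4 sheet, 72 of sn0, 62 of sn5a, 47 of sn1 and 14 of sn2. Of the sn3, sn5b and sn6a sheets they included only 33, 8 and 6 genes. With so few genes to choose from, a count of none does not set these clusters apart. These sheets were made from the same corrected counts. The limit on UMIs kept some genes out, since 13 of the 70 genes left out had a larger share of entries at 0 than the last of the 100, led by Glyma.10G214500 with 83.0% at 0, 178448 UMIs and 82.2% of them in sn4.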

How the data were processed

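Per the labels and the study's methods, the authors processed both libraries with Cell Ranger ARC 1.0 on the soybean assembly Gmax_275_Wm82.a2.v1 and corrected the RNA with SoupX, and what was deposited is a matrix of UMI counts in whole numbers, not normalized. The deposited ATAC fragment list gives a count of read pairs per fragment. That stored zeros are entries set to 0 by the correction is inferred and not given in the sources used here, nor are the clusters given to SoupX.

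Nuclei were clustered in Seurat 5.3.0 (R 4.3.3, sctransform 0.4.2) with 30 principal components at a resolution of 1, after the Seurat 4.1.1 settings of the study, and 21 clusters became 23 by dividing 2. They were matched to the sn numbers by correlation of their mean profiles with those of the study (Pearson r across genes of 0.978 to 1.00, next best at most 0.800). A marker counted as enriched when at least 10% of the cluster's nuclei held it and its mean was at least 2 times that of other nuclei. Scrublet (scanpy 1.11.5) marked 2 of 8636 nuclei, was taken not to have worked, and no doublets were removed. ATAC neighbors were found after latent semantic indexing (components 2 to 30) of 119503 peaks seen in at least 20 nuclei. Scripts were tested on simulated data.

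The genes and lists were chosen with earlier results of these data known. Genes are named by a rule: the 10 with the largest share of 0, the 10 with the most UMIs, for each region the 4 most concentrated and the 4 annotated with the most UMIs, those next to the limit, and those on marker or flavonoid lists. Glyma.20G241700, Glyma.05G088100, Glyma.18G061100, Glyma.11G154900, Glyma.10G214500 and the pairs of adjacent identifiers were named after their values were seen. Gene roles come from the parts of the study's tables used here, which annotate 38 of the 100. The marker sheets among them ended at sn6a, so a gene without annotation here may have one in the study. Levels in CPM were compared between clusters for 1 gene at a time, since no gene lengths were used.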

Additional observations from a re-analysis of the deposited data

How the results depend on the processing

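No paired analysis was possible because there was 1 library of each kind. The cluster with the most entries at 0 differed from the top cluster for 100 of the 100 genes under the 6 other clusterings or sets of nuclei. The median share of UMIs in the top cluster, 41.6% as reported, was 49.4% at a resolution of 0.5, 40.6% at 1.5 and 39.8% with log-normalization. It was 37.6% with clusters built without the 100 genes and 42.5% without the 6% of nuclei with the highest Scrublet score. With clusters from ATAC alone it was 33.8%, and the genes with at least 50% in 1 cluster fell from 39 to 26. With nuclei thinned to 500 UMIs it was 35.4%, and these genes fell to 22. Thinning also lowered the median share of nuclei with a UMI from 15.0% to 4.27%. The epidermis held 15 of the genes in place of 23 both at a resolution of 0.5 and with clusters built without the 100 genes; between 91 and 100 of the 100 genes kept their region under the 6 settings compared.

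The choice of genes mattered more. With at least 1000 entries, 49 of the 100 genes were shared, the median share at 0 was 64.3%, the median in the top cluster 68.0% and 72 genes had at least 50% in 1 cluster. With at least 4000 entries, 25 were shared and these values were 36.9%, 22.2% and 10. With no gene left out for its UMIs, 88 were shared, and the medians were 56.9% and 45.2%. The ATAC neighbor share, 30.2%, was 29.4% with 50 neighbors and 28.8% with only nuclei of at least 3000 fragments. ATAC fragments at the genes themselves were not run, since no gene annotation of this assembly was used here. The causes of these differences were not tested. All values rest on 1 library, and the intervals cover counting error only.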
